A study of Mus musculus with 2 samples.

Results

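The subject of this section is a set of 10 genes of liver blood vessels: the growth factor gene Vegfa, its receptor genes Kdr and Flt1, the angiopoietin gene Angpt2 with its receptor gene Tek, the sinusoidal endothelial genes Stab2, Lyve1 and Dnase1l3, and the general endothelial genes Pecam1 and Cd34. They were chosen by name, and every probe set whose only gene symbol in the array annotation was one of these names was taken. This gave 17 probe sets of 10 genes, out of 34945 probe sets with 1 symbol, which named 18193 genes. For all 10 genes at least 1 probe set exceeded, on both arrays, the floor defined below.

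Whole livers came from BALB/c nude mice, which lack a functional thymus, and their messenger RNA was measured on an Affymetrix mouse expression array. There was 1 array of liver collected at day 0, called the control by the submitters, and 1 array of liver taken 3 days after surgeons removed 70% of it, called active regeneration. Both labels name partial hepatectomy, and the entry of 70% removed is given for both samples. Nothing in the sources used here gives the age, the sex or the number of animals behind a sample. A single array for each day leaves no replicate, so no test was run, and day, operation and animal cannot be told apart.

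The liver sinusoid is lined by a specialised endothelium with open pores and no continuous basement membrane, which clears waste molecules from the blood through scavenger receptors. VEGF-A, made largely by hepatocytes in the liver, acts on endothelial cells through the receptor tyrosine kinase VEGFR2, encoded by Kdr, while VEGFR1, encoded by Flt1, binds VEGF-A tightly and can act as a decoy. Angiopoietin 2 is an endothelial ligand of the receptor TIE2, encoded by Tek, where it acts against or in place of angiopoietin 1. In rodents, hepatocyte division after partial hepatectomy comes first, and the regrowth of the sinusoidal endothelium follows.

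RefSeq promoter sequences (build GRCm38.p6) were held for 6 of the 10 genes. The entries not held were Angpt2, Lyve1, Pecam1 and Dnase1l3. Those of Vegfa, of both its receptors and of Cd34 are shown because they belong to the ligand, to its receptor pair and to the member with the highest ratio. Each run is the 250 bases before the annotated start, 5′ to 3′ on the gene's strand. Capitals mark matches on either strand to the hypoxia response core ACGTG, the GC box GGGCGG or the TATA core TATAAA, none of which overlapped each other.
Vegfa, chr17:46032378-46032627, minus strand: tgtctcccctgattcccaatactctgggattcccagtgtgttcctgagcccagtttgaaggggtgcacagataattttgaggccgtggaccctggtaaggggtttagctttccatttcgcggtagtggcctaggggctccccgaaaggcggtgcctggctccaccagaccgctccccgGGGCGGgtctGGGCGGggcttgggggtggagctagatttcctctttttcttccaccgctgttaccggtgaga
Kdr, chr5:75978456-75978705, minus strand: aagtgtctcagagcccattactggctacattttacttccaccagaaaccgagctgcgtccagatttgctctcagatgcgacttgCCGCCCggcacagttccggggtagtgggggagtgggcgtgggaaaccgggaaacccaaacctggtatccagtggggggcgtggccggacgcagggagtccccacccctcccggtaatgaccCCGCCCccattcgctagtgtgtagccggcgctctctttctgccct
Flt1, chr5:147726012-147726261, minus strand: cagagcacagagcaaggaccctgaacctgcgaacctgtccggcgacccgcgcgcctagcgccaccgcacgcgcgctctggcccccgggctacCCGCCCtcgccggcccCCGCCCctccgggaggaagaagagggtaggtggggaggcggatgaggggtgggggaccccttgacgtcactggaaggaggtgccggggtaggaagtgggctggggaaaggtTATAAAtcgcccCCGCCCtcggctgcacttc
Cd34, chr1:194938571-194938820, plus strand: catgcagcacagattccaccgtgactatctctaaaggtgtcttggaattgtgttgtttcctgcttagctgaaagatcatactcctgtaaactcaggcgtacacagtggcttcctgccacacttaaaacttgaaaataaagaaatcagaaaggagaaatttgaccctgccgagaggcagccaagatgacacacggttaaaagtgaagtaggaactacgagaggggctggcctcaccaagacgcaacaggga

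The Vegfa window held 2 GC boxes, beginning 72 and 62 bases before the start, and the Kdr window 2, at 166 and 45 bases. The Flt1 window held 3 GC boxes and a TATA core at 31 bases before the start. The Cd34 window held no match to any of the 3 motifs. Among 32851 mouse promoter windows of the same length, 32.7% held a GC box, 12.4% a TATA core and 16.6% the hypoxia response core. CG pairs numbered 11 in the Vegfa window, 16 in that of Kdr, 23 in that of Flt1 and 6 in that of Cd34, against a median of 6 over all windows. A second Vegfa entry, with a start downstream of the first, is not printed. Its window also lies downstream of the first start. It matched the hypoxia response core at 211 bases and the GC box at 158 bases before the second start. No other member window held the hypoxia response core, and whether this match acts in a promoter was not tested. These matches describe letters in a window and were not set against the ratios below.

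The values are MAS5 signals, linear intensities in which mismatch probes have been subtracted. Signals below a floor of 68.3, which is the median of the day 3 array and the larger of both medians, were raised to it before log2 was taken. The brightest probe set, by mean log2 signal over both arrays, stood for its gene. All ratios are day 3 over day 0. The log2 ratios of different probe sets for the same gene scattered with an SD of 0.44 (4380 genes with at least 2 probe sets that exceeded the floor on both arrays). This SD covers probe set differences on these arrays and not differences between animals. It was 0.50 in the third of these genes with the lowest signal and 0.37 in the third with the highest.

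Of the 10 genes, Cd34 was the 1 at least 2-fold higher at day 3, Dnase1l3 the 1 at least 2-fold lower, and 8 differed by less. Over all 12634 analysed genes, 12.9% were at least 2-fold higher and 5.62% at least 2-fold lower, so counts of 1 in 10 lie near the background. Signals of 4 members were above their day 0 value and those of 6 below. The median log2 ratio of the members was -0.33, against 0.08 for all analysed genes. The members spanned 3.11 log2 units, from -1.39 for Dnase1l3 to 1.72 for Cd34. At a threshold of 1.5-fold, 3 members were higher, against 24.0% of all genes, and 4 were lower, against 14.2%. No member passed 4-fold in either direction, which 3.27% of all genes did upwards and 0.760% downwards.

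**Figure D1:**
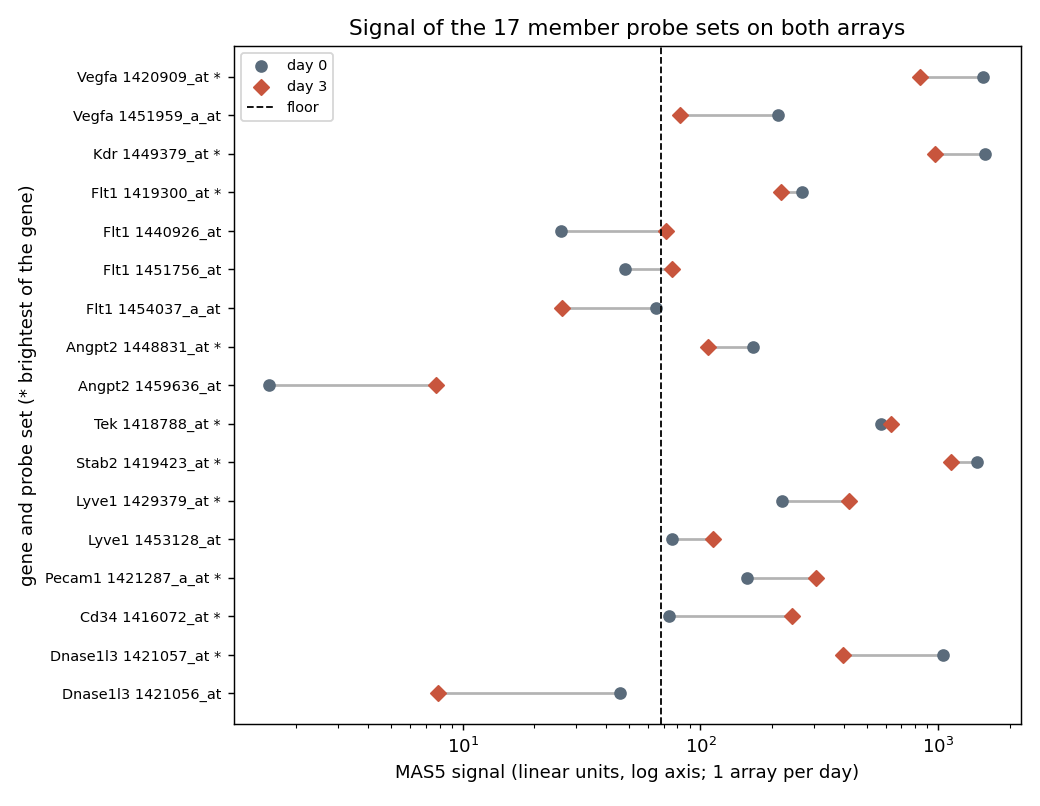
MAS5 signal (log axis) of each of the 17 probe sets at day 0 (circles) and day 3 (diamonds), with the floor of 68.3 as a dashed line and an asterisk at the brightest probe set of each gene. Levels of different probe sets cannot be compared. Both Vegfa probe sets lie to the left at day 3, both Lyve1 probe sets to the right, and 3 probe sets lie below the floor on both arrays.

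The ligand came out lower on both its probe sets. Vegfa had a signal of 1534 at day 0 and 839 at day 3 on its brightest probe set, a log2 ratio of -0.87, or 1.83-fold lower. The other Vegfa probe set read 212 at day 0 and 81.6 at day 3, which is 2.60-fold lower (log2 ratio -1.38) and near the floor at day 3. The probe sets differed by less than the SD of such a difference, 0.62. On the mean of both probe sets Vegfa passed 2-fold, with a log2 ratio of -1.13.

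Among the receptors of VEGF-A, Kdr, which transmits most of its mitogenic signal, read 1567 at day 0 and 964 at day 3. This is 1.63-fold lower, a log2 ratio of -0.70, and the gene had no other probe set to set beside it. Flt1 read 266 and 218, 1.22-fold lower (log2 ratio -0.29), which is under the SD between probe sets. Its other probe sets were dim: 1 lay below the floor on both arrays (65.3 and 26.1), and 2 lay above it only at day 3 (47.9 and 76.2; 25.9 and 71.5), where they exceeded the floor 1.12-fold and 1.05-fold. The ratio of Kdr was close to that of its ligand, with Vegfa 0.17 log2 units below Kdr. Flt1 stood 0.41 log2 units above Kdr, less than 0.62, on the brightest probe sets, and 0.68 above it, over 0.62, on the mean over probe sets.

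In the angiopoietin system the ligand and the receptor differed more. Angpt2 read 167 at day 0 and 108 at day 3, 1.55-fold lower (log2 ratio -0.63), on a probe set not far above the floor. Its other probe set was below the floor on both arrays, at 1.54 and 7.76. Tek read 573 and 635, 1.11-fold higher (log2 ratio 0.15), a difference smaller than the probe set SD, and its sign turned with quantile normalisation (-0.02). The Angpt2 ratio was 0.78 log2 units below that of Tek, a difference that a single scaling factor for an array does not alter and that is over 0.62.

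The sinusoidal genes went different ways. Stab2, a scavenger receptor that clears hyaluronan, read 1460 at day 0 and 1126 at day 3, 1.30-fold lower (log2 ratio -0.38), within 1 probe set SD. Dnase1l3, a secreted nuclease that digests DNA in chromatin and is made in part by sinusoidal cells, read 1042 and 398, 2.62-fold lower (log2 ratio -1.39). Only 2.37% of analysed genes had a lower ratio than Dnase1l3. Its other probe set lay below the floor on both arrays, at 45.8 and 7.90. Lyve1, a hyaluronan receptor of sinusoidal and lymphatic endothelium, was higher at day 3, at 220 and 421, 1.91-fold (log2 ratio 0.94). The dimmer Lyve1 probe set read 75.8 and 112, 1.48-fold higher (log2 ratio 0.57). The ratio of Lyve1 stood 1.31 log2 units above that of Stab2 and 2.32 above that of Dnase1l3, both over the 0.62 of a probe set difference.

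The general endothelial genes were both higher. Pecam1, the junctional adhesion molecule CD31, read 157 at day 0 and 307 at day 3, 1.95-fold higher (log2 ratio 0.96). Cd34, a sialomucin of continuous endothelium and of blood progenitors, which is low in normal sinusoids, read 73.7 at day 0, just above the floor, and 242 at day 3. This is 3.29-fold higher (log2 ratio 1.72), and 95.2% of analysed genes had a lower ratio. Each gene had 1 probe set. The Cd34 ratio stood 2.09 log2 units above that of Stab2, and the Pecam1 ratio 1.67 above that of Kdr.

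**Figure D2:**
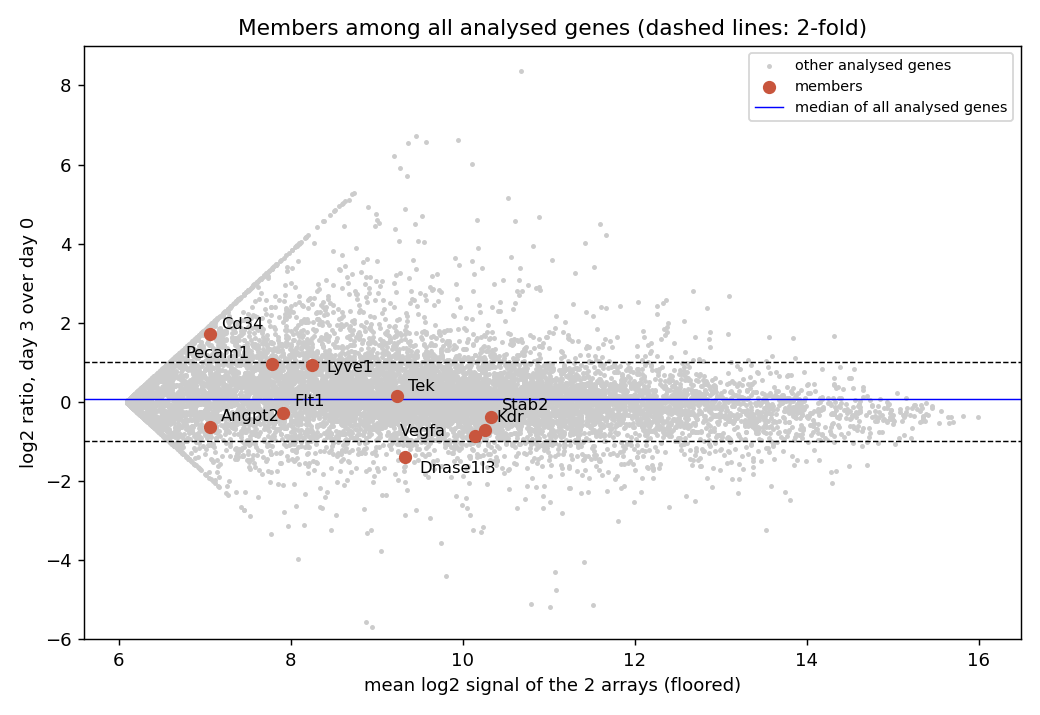
Log2 ratio (day 3 over day 0) against mean log2 signal for every analysed gene (grey) and for the 10 members (red), with dashed lines at 2-fold and the median of all genes, 0.08, as a blue line. Cd34 lies above the upper dashed line and Dnase1l3 below the lower one, and the other 8 lie between them.

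Ordered by ratio, the members ran Dnase1l3, Vegfa, Kdr, Angpt2, Stab2, Flt1, Tek, Lyve1, Pecam1 and Cd34. Of the 9 gaps between neighbours, 2 were over 0.62: that from Tek to Lyve1 (0.79) and that from Pecam1 to Cd34 (0.75). The first was 0.60 on the mean over probe sets and the second 0.57 with spike scaling, both under 0.62. The value of 0.62 pools all signal levels and so is rough for dim probe sets such as that of Cd34. The other 7 neighbouring pairs did not differ beyond the spread between probe sets, so the order within the 7 genes from Dnase1l3 to Tek is not resolved step by step. The 3 genes above the first of those gaps were Lyve1, Pecam1 and Cd34.

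**Figure D3:**
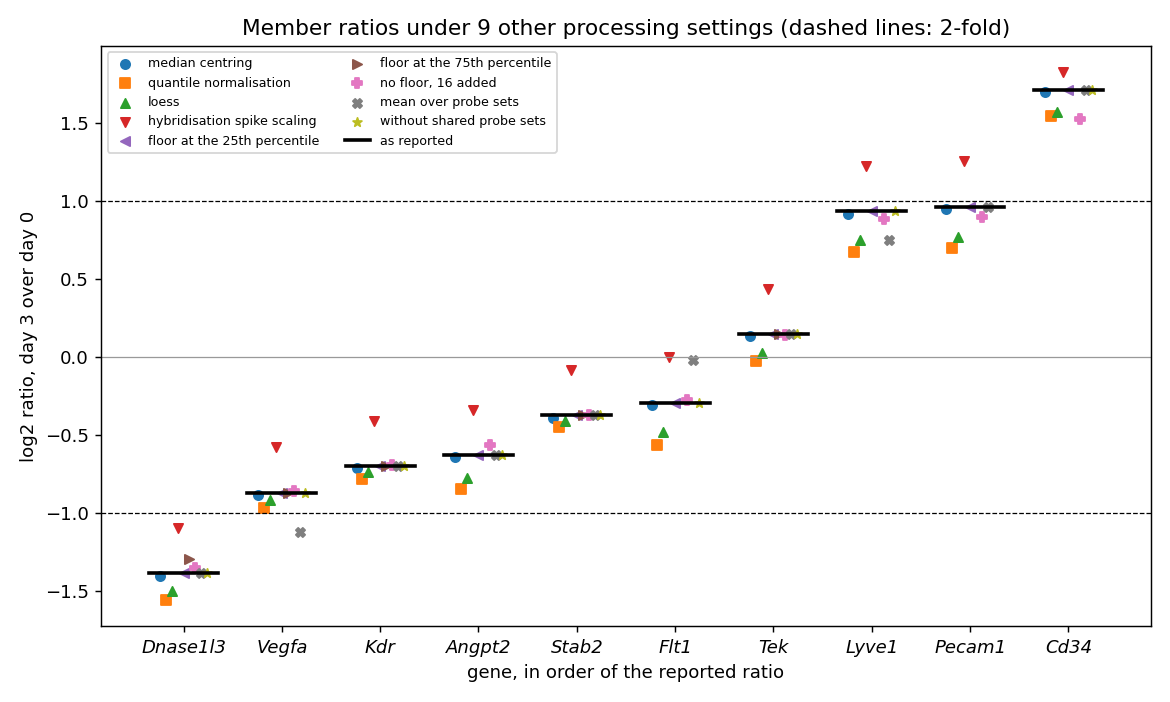
Log2 ratio of each member as reported (black bars) and under 9 other settings of scaling, floor and probe set choice (symbols), with dashed lines at 2-fold. Cd34 stays above 1 and Dnase1l3 below -1 wherever they were analysed. Lyve1 and Pecam1 pass 1 only with hybridisation spike scaling, Vegfa passes -1 only with the mean over probe sets, and Tek crosses 0 with quantile normalisation.

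Lists of related genes were set beside the members, and all are described without a test. Their counts stand beside 12.9% of all analysed genes at least 2-fold higher and 5.62% lower. Of 4 analysed VEGF ligands, 1 passed 2-fold downwards and 0 upwards. Their median of -0.26 turned to 0.02 with spike scaling. It was 0.35 without probe sets whose names end in _s_at, _x_at or _a_at, Vegfb among them. The ligand past 2-fold, Vegfb, which binds VEGFR1, read 441 at day 0 and 199.7 at day 3, 2.21-fold lower. Vegfc, a ligand of the lymphatic receptor VEGFR3, read 157 and 308 on its brightest probe set, while its other probe sets had log2 ratios of -0.17 and 0.14. Vegfd had a log2 ratio of 0.35, and Pgf was under the floor on both arrays. Among 5 VEGF receptors and coreceptors, 0 passed 2-fold in either direction, and their median was -0.28, or 0.01 with spike scaling. The coreceptor gene Nrp1 had a log2 ratio of -0.13 on its brightest probe set and -0.95, -0.63 and 0.51 on others, Nrp2 had -0.28, and Flt4, which encodes VEGFR3, had 0.20. In the angiopoietin list 0 of 4 analysed genes passed 2-fold, and the median was -0.32, or -0.03 with spike scaling. Ptprb, the phosphatase that restrains TIE2, read 2810 and 1426, 1.97-fold lower, with another probe set at -0.93, and Tie1 read 244 and 242. Angpt1 was under the floor on both arrays, at 47.9 and 40.5. Vegfc, Vegfd, Pgf, Nrp1 and Angpt1 were added to the named genes after their values were seen, to complete these short lists.

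Among 18 analysed genes of the sinusoidal endothelium, 16 differed by less than 2-fold, 1 was past it upwards and 1 downwards, and the median was -0.31. Without the members the median of 15 genes was -0.29, with 6 above 0 and 9 below. The gene past 2-fold upwards was Icam1, an adhesion molecule for leukocytes that many cell types make under inflammatory signals (493 at day 0 and 1725 at day 3, 3.50-fold). The one past 2-fold downwards was Dnase1l3. Among 33 genes of endothelium in general, 27 differed by less than 2-fold, 6 were past it upwards and 0 downwards, and the median was 0.43. Those 6 include the member Cd34 and also Tal1, whose day 0 signal of 68.0 lay just under the floor. Without the members the median of 31 genes was 0.37, with 21 above 0 and 10 below. Sox17, a transcription factor of arterial endothelium, was 4.13-fold higher, and its dimmer probe set gave a log2 ratio of 0.88. Mcam, the adhesion molecule CD146, was 3.72-fold higher and Vwf, von Willebrand factor, 2.45-fold higher. The sinusoidal and the general list thus had medians on either side of 0.08, the median of all analysed genes. With spike scaling these medians were -0.03 and 0.72, against 0.36 for all genes. The difference between the lists was not tested. Over all analysed genes, 12.9% were at least 2-fold higher and 5.62% lower.

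Genes of angiogenic growth were read against the same 12.9% of all genes at least 2-fold higher and 5.62% lower. Of 10 analysed tip cell and basement membrane genes, 3 passed 2-fold upwards and 0 downwards (median 0.76, or 1.60 after raising the floor to the 75th percentile of signal). They were the type IV collagen genes Col4a1 (596 and 4187, 7.02-fold, and 1.47 in log2 on a dimmer probe set) and Col4a2 (727 and 2201, 3.03-fold), and Unc5b, a guidance receptor of endothelial cells (2.73-fold). Of the 15 genes of that list, 5 were under the floor on both arrays. Of 8 Notch pathway genes, 4 passed 2-fold upwards and 0 downwards (median 0.78, or 0.31 with a 25th percentile floor), among them the ligand genes Dll1 (195 and 759, 3.90-fold) and Jag1 (137 and 446, 3.26-fold) and the receptor gene Notch1 (899 and 1933, 2.15-fold). The other Jag1 probe sets had log2 ratios of -0.17 and -1.02. Of 10 genes linked to endothelial signals to hepatocytes, 7 passed 2-fold upwards and 0 downwards (median 1.22, or 0.31 with a 75th percentile floor), 2 of these 7 being bounds against the floor. Besides ligand genes the list holds Ackr3 and Id1, which encode no secreted signal and are among these 7. Ackr3, the scavenging chemokine receptor CXCR7, was at least 7.69-fold higher, since its day 0 signal of 67.8 lay just under the floor. Hgf, the hepatocyte growth factor gene, was 3.69-fold higher (80.8 and 298), with other probe sets at 0.96 and 0.08, and Id1, a transcriptional inhibitor induced by BMP signals, was 3.50-fold higher (481 and 1680). These genes are also used by other liver cells, hepatocytes and stellate cells among them.

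Low oxygen is a known inducer of Vegfa. Genes of the response to it, with its regulators Hif1a, Epas1, Arnt and Vhl counted among them, gave a mixed picture, with a median of 0.43. Of 22 analysed, 16 differed by less than 2-fold, 4 were past it upwards and 2 downwards, beside 12.9% and 5.62% of all genes. Hmox1, heme oxygenase, was 3.33-fold higher, Pfkfb3, a glycolytic regulator, 2.75-fold with another probe set at -0.21, and Ddit4, an mTORC1 inhibitor, 2.64-fold. Pdk1, a kinase of pyruvate dehydrogenase, was 3.47-fold lower and Bnip3, a mitophagy receptor, 2.08-fold lower. Of 8 secreted or intracellular antagonists of angiogenesis, 3 passed 2-fold upwards and 1 downwards, with a median of 0.16. That median was -0.69 with the 75th percentile as floor and 0.71 with no floor. It was 0.65 without probe sets named _s_at, _x_at or _a_at. Adamts1, a matrix protease that binds VEGF-A, was 4.87-fold higher, Thbs2, a thrombospondin, 4.19-fold and Sparc, a matricellular protein, 3.44-fold, while Serpinf1, the anti-angiogenic factor PEDF, went from 25217 to 9158, 2.75-fold lower.

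**Figure D4:**
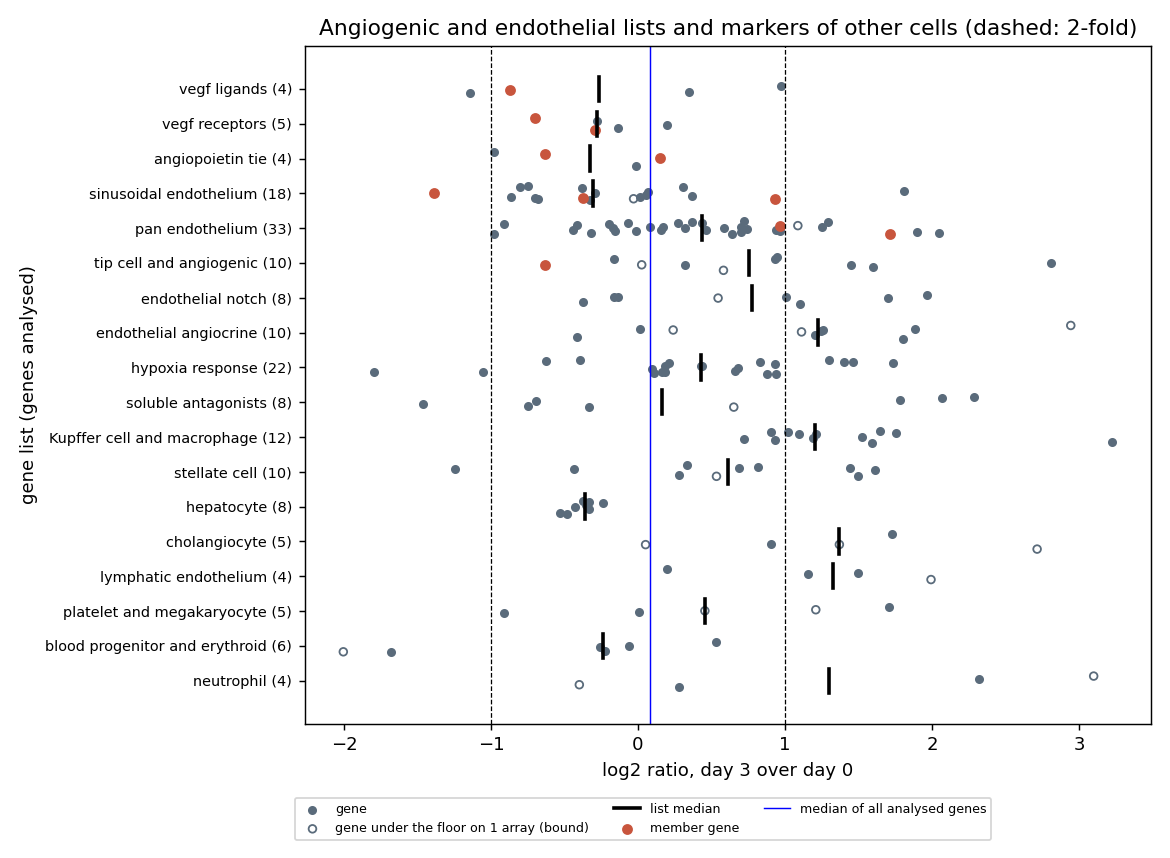
Log2 ratio (day 3 over day 0) of each analysed gene in the endothelial and angiogenic lists and in the marker lists of other cells, with list medians as black bars, members in red, bounds as open circles and the median of all genes as a blue line. The dividing-cell list, whose ratios start at 4.61, is outside the plotted range and was left out. The sinusoidal list lies mostly left of the blue line, and all 12 Kupffer cell and macrophage markers lie to its right.

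Several members are also made by other cells, whose markers also differed between the arrays. The counts below stand beside 12.9% of all analysed genes at least 2-fold higher and 5.62% lower. Kupffer cells and macrophages can express Lyve1 and Pecam1: all 12 of their markers had higher signal at day 3, 9 of them by at least 2-fold, and their summed signal went from 10082 to 26231. Platelets carry Pecam1: of 5 analysed megakaryocyte markers, 2 were at least 2-fold higher, Pf4 (144 and 472) and Itgb3, a bound. Gp1bb was 1.88-fold lower, Itga2b read 273 and 274, and Gp9 had a bound of 1.37-fold higher. The summed signal of the 5 went from 643 to 1088, with Ppbp under the floor on both arrays. Blood progenitors carry Cd34: of 6 analysed progenitor and erythroid markers 0 were at least 2-fold higher and 2, the erythroid genes Alas2 and Klf1, were lower. Their summed signal went from 9732 to 3347, and from 799.6 to 563 without Alas2, while the progenitor gene Kit read 102 and 147, 1.44-fold higher. Of 4 analysed lymphatic markers 3 were at least 2-fold higher: Reln, Prox1 (176 and 392) and Pdpn, a bound. Flt4 had a log2 ratio of 0.20. Their summed signal went from 4165 to 10770, most of it from Reln (3357 and 9454), which stellate cells make too. Whether the signals of Prox1, Pdpn and Flt4 came from lymphatic vessels was not tested. Of the other marker lists, 3 of 10 stellate cell, 3 of 5 cholangiocyte and 2 of 4 neutrophil markers were at least 2-fold higher, and 1 stellate cell marker was lower. Among these higher markers Epcam, Krt7 and S100a8 were bounds, under the floor at day 0. The part of these cells in the Lyve1, Pecam1 and Cd34 values was not tested. In whole liver, fewer cells of a type and less RNA per cell cannot be told apart.

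The tissue label was checked on hepatocyte markers: on their brightest probe sets all 8 lay far above the floor, and all 8 were lower at day 3. Their log2 ratios were -0.53 to -0.24, with a median of -0.36. Dimmer probe sets of Hnf4a gave -1.90, -0.24 and -0.40, the last a bound. The ratios of Stab2 and Flt1, -0.38 and -0.29, lay within the range of the brightest probe sets. Those of Angpt2, Kdr and Vegfa lay below it by less than the SD of a probe set difference, 0.62. Only that of Dnase1l3 lay further below it than 0.62. All 5 markers of dividing cells were at least 2-fold higher, with a median log2 ratio of 5.28. The arrays also differed in RNA or labelling balance: all 8 pairs of poly-A control probe sets had a larger 3′ to 5′ ratio on the day 3 array, by a median of 2.13 times. These pairs repeat the spikes dap, lys, phe and thr. The ratio of mouse beta-actin was 3.26 at day 0 and 6.80 at day 3, and that of Gapdh 1.41 and 2.69. Ratios of the hybridisation spikes changed by 0.88 to 1.01 times. Where the members' probe sets lie on their transcripts was not analysed, and the part of this balance in the ratios was not tested. With scaling to the hybridisation spikes the median over all genes was 0.36 in place of 0.08. Under it the lower members stayed below 0, with Flt1 at -0.001 and Stab2 at -0.08.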

How the data were processed

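Liver RNA of 1 sample per day (5 µg each, labelled with biotin) was hybridised to 1 Affymetrix array each. The authors deposited a linear intensity per probe set, made with GCOS and MAS5, per the submitters' processing notes, whose versions and scaling target were not stated. Both arrays had a trimmed mean of 500.0. MAS5 subtracts mismatch signal, so dim probe sets are noisy. Detection calls were not used here.

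Probe sets were named from the supplied array annotation; 932 with several symbols and 9160 without one were left out, as were 64 control probe sets. Signals were floored at 68.3, log2 was taken, and a 2-fold difference was needed to count a gene. A gene under the floor on 1 array has a bound. Named genes were all members and, per list, up to 3 past 2-fold in each direction, or the 2 farthest from 0 where none passed; the genes completing the short VEGF and angiopoietin lists and the single marker genes were named after their values were seen. The members and the lists were chosen with earlier results of these data known. The 11 alternatives changed scaling, floor, probe set choice or threshold. The steps were tested on simulated data. Python 3.11.15, pandas 2.3.3 and statsmodels 0.14.6 were used.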

Additional observations from a re-analysis of the deposited data

How the results depend on the processing

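With 1 array per day no replicate could be left out, and no alternative measures the difference between animals. No paired analysis was possible because each day had 1 array. The ratios of Cd34 (1.53 to 1.83) and Dnase1l3 (-1.56 to -1.10) stayed past 2-fold in all settings in which they were analysed. No member ratio moved by more than the probe set SD of 0.44. Members at least 2-fold higher numbered 3 with spike scaling, where Lyve1 (1.23) and Pecam1 (1.26) passed, and 0 when the floor was raised to the 75th percentile, which left 5 members and removed Cd34. Members at least 2-fold lower numbered 2 with the mean over probe sets. With thresholds of 1.5-fold and 4-fold the higher members numbered 3 and 0, and the lower members 4 and 0. Of all genes past 2-fold, 69.6% were higher at day 3, against 58.5% with quantile normalisation and 86.3% with spike scaling. The floor at the 75th percentile, which keeps fewer genes, moved the medians of the tip cell list to 1.60, the endothelial signal list to 0.31 and the antagonist list to -0.69. The antagonist median was 0.71 with no floor and 0.65 without probe sets named _s_at, _x_at or _a_at. The Notch median was 0.31 when the floor was lowered to the 25th percentile. The VEGF ligand median was 0.35 without probe sets of those name endings, which removed Vegfb. The cause was not tested beyond these changes in the genes analysed.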
